A study of Sus scrofa with 4 samples.

Results

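The low-only peaks described here are intervals of histone H4 lysine 12 lactylation (H4K12la) that the authors' peak caller reported in the liver of low bile acid sows and not at or near the same place in the liver of high bile acid sows. A member is a peak of the low list on chromosomes 1 to 18 with no peak of the high list overlapping it after it is widened by 1 kb on each side. This rule gave 5263 of the 5730 low-list peaks on these chromosomes (91.8%; exact Clopper-Pearson 95% interval 91.1 to 92.5%), out of 5735 on all chromosomes. Of the other low-list peaks, 207 overlapped a high-list peak and 260 had one within 1 kb without overlap. The members were chosen by the peak positions in both lists, so the absence of a high-list peak is a property of the choice and not a result.

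The mark had been mapped by immunoprecipitating sow liver chromatin and sequencing it, in late gestation, for a low (also called normal) and a high bile acid group. Each group had 1 immunoprecipitated library and 1 input library, the latter without antibody, and the 4 samples were labelled female, liver and hepatocytes. How the groups came to differ in bile acids, the number of sows behind a library, and their breed and age are not given in the sources used here. With 1 library per group no test between the groups exists, no difference has a replicate check, and all intervals given cover counting error only, since amplified fragments without molecular identifiers are not independent molecules. In whole tissue, fewer cells carrying a mark and less of it per cell cannot be told apart.

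Lysine lactylation is an acyl mark that cells build from lactate, and on histone tails it lies with other acyl marks at active promoters and enhancers. The liver is a main site of lactate uptake and of bile acid synthesis and export. In cholestasis of pregnancy, bile acids accumulate in late gestation.

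Most low-only peaks rested on few fragments. A peak's fold is the authors' enrichment at its summit over the local background, and the number of fragments at the summit was recovered from the fold and the p-value. The median member had a fold of 2.98 (quartiles 2.70 and 3.27, range 1.51 to 5.02), 10 fragments and 2.09 expected. Between 9 and 11 fragments lay under 68.6% of the members (3609 of 5263; 67.3 to 69.8%), and 13 or more under 5.85%. The median width was 336 bp, and 32.9% had the smallest width, 299 bp. The authors' q-value, which adjusts each p for all positions of that library, was 1 for all but 123 members and under 0.05 for 6 (0.114%; 0.0418 to 0.248%). In the high list on the same chromosomes, 2.13% of peaks had a q under 0.05.

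**Figure D1:**
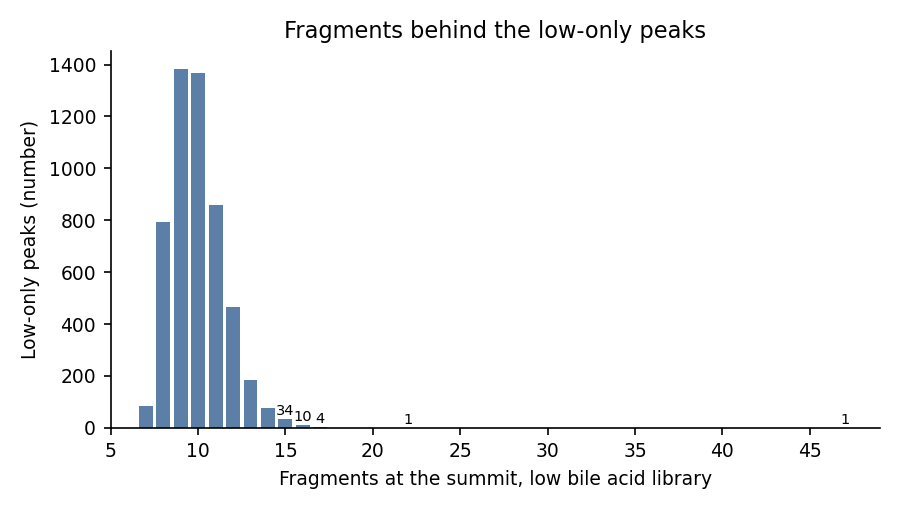
Number of low-only peaks (vertical axis) by the number of low bile acid fragments at the summit (horizontal axis), with the number written above the sparse bars. The bars for 9, 10 and 11 fragments hold 1384, 1368 and 857 peaks, and single peaks lie at 22 and 47.

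A missing high-list call is not a measured zero. For each member, the smallest fragment number that would pass the caller's p-value limit of 0.01 in the high library was computed over the same expected number. In 105 members (2.00%; 1.63 to 2.41%), the lower end of the 95% Poisson interval of the low fragment number, multiplied by the caller's own scale factor, lay at or above that number. For the remaining 5158 the interval reached below it. The comparison holds no fragment number of the high library, so it cannot decide for any member whether occupancy differed. The high library's own fragment numbers at these places are not analysed here. Of the 105 peaks, 20 lay at a gene end (19%; 12 to 27.9%), 47 inside a gene and 38 outside genes. Among the other 5158 members, 8.96% lay at a gene end (8.19 to 9.77%). All 105 had a fold of 3.5 or more. High-list peaks with a fold from 3.5 to 4 and of 4 or more lay at a gene end in 12.7% and 16.8% of cases. Whether the share of the 105 goes beyond their fold was not tested.

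The 6 members with a q under 0.05 lay at or near genes of unlike function, and none had its summit within 1 kb of a gene end. Of these, 5 are described here. The highest fold of all members, 5.02 (q 0.00471), was at chromosome 5, 22398779 to 22399268, with 16 fragments (95% interval 9.15 to 26) over 2.00 expected. Its summit lay 1207 bp from NAB2, which encodes a co-repressor of EGR transcription factors. In the high list, the closest peak to it was 6318 bp away, with 9 fragments and a fold of 2.63, at the other end of NAB2.

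TKT, the transketolase gene of the pentose phosphate pathway, held a low-only peak at chromosome 13, 35369924 to 35370464, with a fold of 4.83 (q 0.0229) on 15 fragments (8.40 to 24.7) over 1.94 expected. The TKT summit lay 7302 bp inside the gene, and 2 high-list peaks of fold 2.42 and 2.52 lay elsewhere in it. DPH5, a methyltransferase gene of diphthamide synthesis, had the same fold and fragments at chromosome 4, 117292545 to 117292932. No high-list summit lay in DPH5, and the nearest high-list peak was 141054 bp away. DSC1, which encodes a desmosomal cadherin, also had 15 fragments and a fold of 4.83, at chromosome 6, 115045290 to 115045775, with no high-list summit in the gene. Equal folds arise because 21.7% of the members share the caller's lowest expected number, 1.94, so that the fold steps with whole fragments.

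BAIAP2L1, which encodes an adaptor between membrane and actin, held a peak of fold 4.83 (q 0.0231) at chromosome 3, 5554884 to 5555239. In BAIAP2L1 the high list had 4 summits, with folds of 2.51 to 3.69, the nearest 3285 bp away. By fold, the members after these 6 were at POLR1D, in THSD7B and next to the pseudogene LOC100522980 (4.59 each, q 0.0533). At 4.53 (q 0.142) were peaks at LOC100524391, at GSTO1 and 45369 bp from GPR12, an orphan receptor gene.

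Places of all members were read from their summits against 26902 annotated genes of any type. Within 1 kb of a gene end lay 9.16% of the low-only summits (482 of 5263; 8.39 to 9.97%), 57.6% lay inside a gene and over 1 kb from its ends (56.3 to 59.0%), and 33.2% lay outside genes (31.9 to 34.5%). High-list summits lay in these places in 11.4%, 56.5% and 32.1% of cases. Among the 467 low-list peaks with a high-list peak within 1 kb, 24.6% (20.8 to 28.8%) lay at a gene end. The low-list peaks that the rule removed thus lay at gene ends more often than the members did. The lower share of the members is therefore not independent of the rule. The annotation gives no strand here, so the end that holds the start site was not told from the other.

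**Figure D2:**
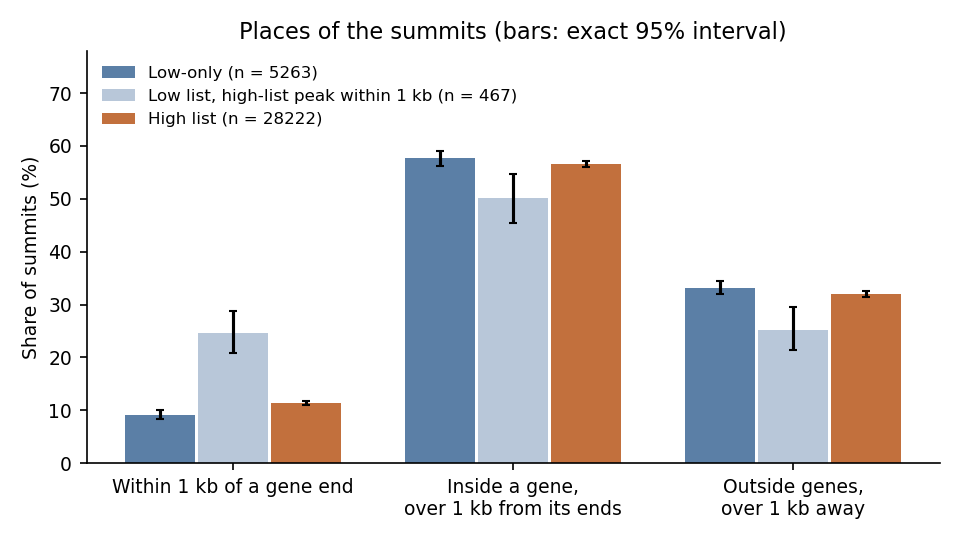
Share of summits in percent (vertical axis) within 1 kb of a gene end, inside a gene and outside genes for the low-only peaks, the other low-list peaks and the high list, with exact 95% intervals as error bars. At gene ends the low-only bar stands at 9.16%, the high-list bar at 11.4% and the bar of low-list peaks with a high-list peak within 1 kb at 24.6%.

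By strength, the share at gene ends was 9.55%, 9.39%, 8.31% and 9.79% for members with a fold below 2.5, from 2.5, from 3 and from 3.5. It was 16.4% (8.49 to 27.5%) for the 67 members with a fold of 4 or more, an interval that reaches below the values of the other tiers except the 8.31% from 3 to 3.5. In the high list, 16.8% of the 885 peaks of that fold lay at a gene end. Of the 482 gene-end members, 404 lay at a protein-coding gene, 88 at a long noncoding RNA gene and 14 at a pseudogene, with overlaps between these. Ends of 2 or more genes lay within 1 kb of 82 of them (17.0%; 13.8 to 20.7%), a share of 16.3% in the high list. Members inside genes had a median of 25572 bp to the nearer end. This class leaves out summits within 1 kb of an end. Named coding genes that held a low-only summit were long, with a median of 95.7 kb against 25.7 kb over all. The distance is set beside no background and only describes place.

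The members outside genes had their summit a median of 23273 bp from the nearest gene. Over 50 kb from any gene lay 570 members (10.8%), and over 100 kb away lay 311 (5.91%). The farthest was 845040 bp from EYS, which encodes an extracellular matrix protein of photoreceptors, at chromosome 1, 47494631 to 47494929. It had a fold of 3.04 on 9 fragments. The other 4 of the farthest 5 had folds of 2.63 to 3.04 on 8 or 9 fragments, with FSTL5 as the only named coding gene nearest to one of them, at 703525 bp.

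Distances from the members to the high list varied widely. High-list peaks lay at 12.5 per Mb, the rule removes gaps under 1 kb, and no background distance was computed, so the gaps only describe spacing. The median gap to the nearest high-list peak was 24266 bp (quartiles 9637 and 58121 bp), and 12.6% of the members were over 100 kb from one. The farthest, at chromosome 13, 154600374 to 154600672, was 825476 bp away and had a fold of 3.34. Just inside the 1 kb limit of the rule were members next to BRD1, in TMEM9 and in HOXA3, at 1007, 1010 and 1011 bp, with folds of 2.78, 2.52 and 2.94. Just outside it, low-list peaks in PLEKHG6 and next to BRAT1 and TRIM33 were 992, 992 and 987 bp from a high-list peak, with folds of 2.80, 2.63 and 2.98.

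Chromosomes differed in how many members they carried per Mb, counted up to the last annotated gene. Chromosome 12 had the most, 3.28 per Mb (202 peaks; 95% interval 2.84 to 3.77), and chromosome 8 the fewest, 1.75 (243 peaks; 1.54 to 1.99). Chromosome 12 was also the densest for high-list peaks (23.1 per Mb) and genes (23.8 per Mb), and chromosome 8 was the sparsest for high-list peaks (8.77). Across the 18 chromosomes the densities of low-only and high-list peaks had Pearson's r of 0.87 and Spearman's rho of 0.78, and those of low-only peaks and genes 0.81 and 0.72. These are descriptions over chromosomes of 1 library in each group. Gene-dense chromosomes carried more of both kinds of call.

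**Figure D3:**
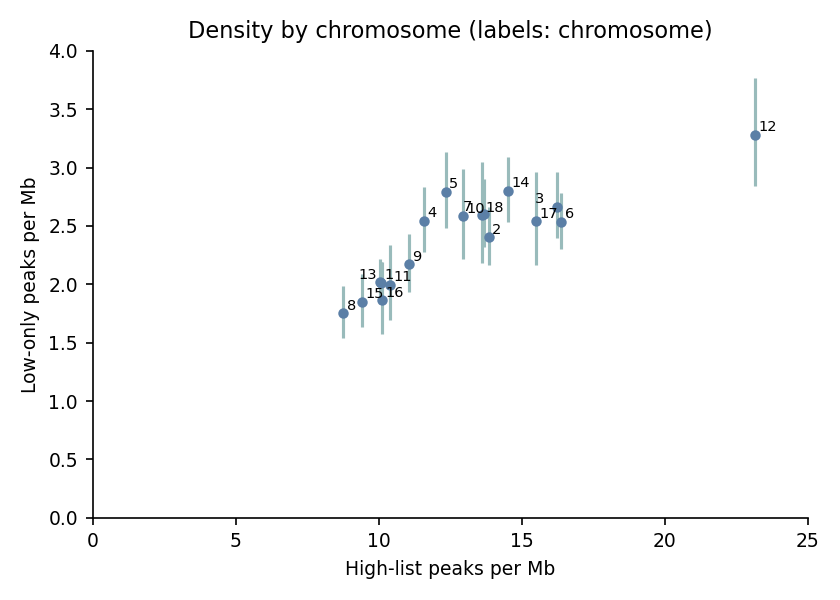
Low-only peaks per Mb (vertical axis, bars show the 95% Poisson interval) against high-list peaks per Mb (horizontal axis), one point for each of chromosomes 1 to 18. The point of chromosome 12 lies highest on both axes, at 3.28 and 23.1, and that of chromosome 8 lowest, at 1.75 and 8.77.

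Of 15689 named coding genes on these chromosomes, 412 had a low-only summit within 1 kb of an end (2.63%), against 2690 with a high-list summit there (17.1%). The 12 genes with the highest folds follow, in order of fold. At POLR1D, which encodes a subunit shared by RNA polymerases I and III, the peak at chromosome 11, 5043786 to 5044191, had a fold of 4.59 on 15 fragments (8.40 to 24.7) and its summit 306 bp outside the gene. A high-list peak of fold 2.53 on 7 fragments began 3041 bp beyond it, on the other side of the gene. At GSTO1, an omega-class glutathione transferase gene, the peak spans chromosome 14, 115206227 to 115206886, across the gene's end at 115206434, with a fold of 4.53 on 14 fragments. GSTO1 held no high-list summit.

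CFAP61, a cilia gene, and CRNKL1, a spliceosome gene, overlap at their ends, and 1 peak at chromosome 17, 28111267 to 28111624, lay there with a fold of 4.23 on 13 fragments. FBXW11, which encodes an F-box protein of an SCF ubiquitin ligase, had a fold of 4.23 at chromosome 16, 52212139 to 52212586, 62 bp from its end. NACA, the alpha subunit gene of the nascent polypeptide-associated complex, had the same fold at chromosome 5, 22057055 to 22057394. CRNKL1, FBXW11 and NACA held no high-list summit, while CFAP61 held 4, with folds of 2.60 to 2.98.

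Next by fold came RPUSD2, a pseudouridine synthase gene, and XCR1, a chemokine receptor gene of dendritic cells, at 4.15 each, and RNASEH2B, a subunit gene of ribonuclease H2, at 4.02. HNRNPF, an RNA-binding protein gene, had 3.99 at chromosome 14, 61668243 to 61668572. The neighbours JOSD1, a deubiquitinase gene, and TOMM22, a mitochondrial import receptor gene, share 1 peak of the same fold at chromosome 5, 9336354 to 9336739. That peak lay 1030 bp from a high-list peak and would leave the set if the limit were slightly wider. These 12 genes had 13 to 15 fragments each, and the 10 peaks behind them all belong to the 105 above the high library's limit. Ranking by fold favours this, because fold and limit rest on the same fragment and expected numbers.

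Of the 412 genes, 38 (9.22%; 6.61 to 12.4%) also had a high-list summit at an end, so that 0.242% of all named coding genes had both. The share over all named coding genes was 17.1%. The rule bars a high-list peak within 1 kb of a member, so nothing is read from the lower share. In 234 of the 412 (1.49% of all named coding genes) there was no high-list summit anywhere in the gene or within 1 kb. The other 178 (43.2%) had one, beside 49.9% of all named coding genes.

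Inside genes, 2233 named coding genes held a low-only summit (14.2%) and 7249 a high-list summit (46.2%). Both lists followed gene length. Of genes up to 10 kb, 2.53% held a low-only summit and 21.0% a high-list summit, while of the 239 genes over 500 kb, 69.9% and 97.9% did. Of the 2233 genes, 1518 (68.0%; 66.0 to 69.9%) held a high-list summit elsewhere, with a median length of 140 kb, and 715 did not (4.56% of all), with a median of 37.4 kb. Most coding genes with a low-only summit also held a high-list summit at another place, at a share near that of all genes of like length in most classes. From 10 to 50 kb it was 269 of 628 such genes, beside 42.5% of all genes. From 200 to 500 kb it was 392 of 432, beside 88.8%. From 50 to 200 kb the number was higher, 671 of 905 beside 65.3%.

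After DPH5, DSC1, TKT and BAIAP2L1, the highest folds over 1 kb inside a gene were in THSD7B, a thrombospondin-domain gene (4.59, chromosome 15, 15538657 to 15539060), and in NSRP1, a splicing regulator gene, and PLCB4, a phospholipase C gene (4.31 each). CUX1, a homeobox transcription factor gene, followed with 4.30 on 15 fragments at chromosome 3, 9512596 to 9512974. In THSD7B the high list had 13 summits over 1522 kb, in CUX1 9, in PLCB4 5 and in NSRP1 1.

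Of the genes that held any, 1788 held 1 low-only summit, 330 held 2 and the others 3 to 8. AUTS2, a developmental gene whose protein joins a Polycomb complex, held 8 in 1229 kb at chromosome 3, 13565439 to 14794365, with folds of 2.67 to 3.11, beside 21 high-list summits. SRGAP2, a regulator gene of the actin cytoskeleton, held 7 in 279 kb at chromosome 9, 66838062 to 67117315, with folds of 2.63 to 3.49, beside 2 high-list summits. IQGAP2, a scaffold gene with strong expression in liver, held 6 in 339 kb at chromosome 2, 85294423 to 85633645. The 6 peaks in IQGAP2 had folds of 2.27 to 3.86 on 7 to 12 fragments, each at least 16294 bp from a high-list peak, and the gene held 2 high-list summits. DLG2, a synaptic scaffold gene of 1971 kb, held 6 beside 10.

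SCUBE2, whose protein helps release Hedgehog ligands, held 5 low-only summits in 67.8 kb beside 2 high-list summits, and ITPR2, the main inositol trisphosphate receptor gene of hepatocytes, held 5 in 530 kb beside 2. ATXN7L1 held 5 beside 9, CTIF 5 beside 14 and CSMD1 5 beside 17. The genes are ranked by this number, so a high count is what selected them, and long genes lead for their length. SRGAP2, IQGAP2, SCUBE2 and ITPR2 are those of the 14 genes with 5 or more where the low-only number was above the high-list number. Over chromosomes 1 to 18 the densities were 2.32 low-only and 12.5 high-list peaks per Mb.

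**Figure D4:**
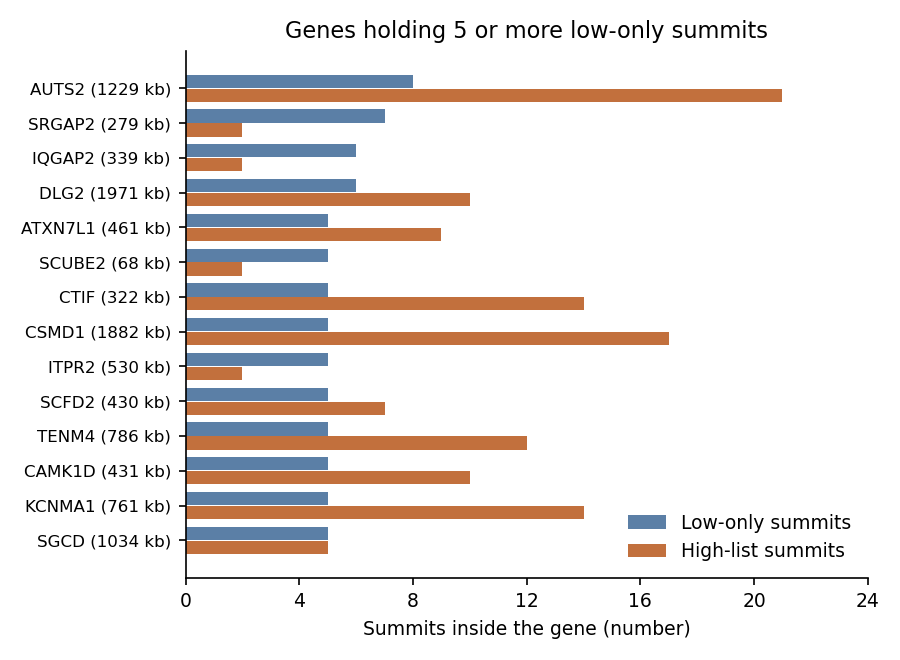
Number of low-only and high-list summits inside each of the 14 genes that hold 5 or more low-only summits (horizontal axis), with the gene's length in brackets. AUTS2 has 8 and 21, whereas SRGAP2 has 7 and 2 and IQGAP2 6 and 2.

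Among genes of 20 kb or more, the most low-only summits per 100 kb were in OLFM1, a secreted glycoprotein gene, with 3 in 25.1 kb at chromosome 1, 274236241 to 274261322. OLFM1 had no high-list summit, and the folds were 2.25, 3.02 and 3.02. DEF8 and ZNF335, each with 2, SLC38A10, an amino acid transporter family gene, with 3 and EHD1, an endocytic recycling gene, with 2 came next, and each held high-list summits within it. The most low-only summits without a high-list summit in the gene were in EPB41L1, a membrane skeleton gene, with 4 of fold 2.61 to 2.74 in 135 kb at chromosome 17, 39360388 to 39495064. RNF10, LHFPL2, RAB30, OLFM1 and RBM6 held 3 each.

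Members lay at 2.32 per Mb, and no background share of neighbouring summits was computed, so it was not tested whether they cluster or spread. Of the members, 419 (7.96%; 7.24 to 8.73%) had another low-only summit within 10 kb, in 187 pairs and 15 groups of 3. By fold, the groups of 3 were led by one in MBNL2, a splicing regulator gene, over 9717 bp with folds of 2.75 to 4.02. The next lay at and beyond SLC39A13, a zinc transporter gene (2.48 to 3.96), in SCUBE2 (2.5 to 3.70), outside genes near MCM9 (2.70 to 3.64) and in RNF10 (2.45 to 3.56). No high-list summit lay within the span of any of these 5. The spans were only 9163 to 14585 bp, and high-list peaks lay at 12.5 per Mb. The rule also bars a high-list peak within 1 kb of each member, so nothing is read from this lack.

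Gene lists were counted next, each beside the share of all named coding genes, which is 2.63% for low-only gene-end summits, 15.2% for low-only and 49.9% for high-list summits in the gene or within 1 kb, and 4.85% for low-only summits there without a high-list one. The rule fixes where a low-only peak can lie, and short lists rest on small numbers, so nothing is read from a list's share. Some lists (RNA polymerase subunits, spliceosome, circadian clock with FBXW11) were drawn up with earlier results for POLR1D, CRNKL1 and FBXW11 known.

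Of 14 bile acid synthesis and conjugation genes, 0 had a low-only gene-end summit and 6 a high-list one, and of 19 transport genes 0 and 3 did. Over all named coding genes the shares were 2.63% for low-only and 17.1% for high-list gene-end summits, from 5263 and 28222 peaks. Lists of this size are too short to tell 0 from the background of 2.63%. Within gene bodies, SLC27A2, which activates bile acid precursors, held a low-only peak of fold 2.97 on 10 fragments. SLC27A2 also had a high-list summit of fold 3.39 at an end. Transport genes held low-only peaks in 5 of 19 cases (26.3%), with a median gene length of 68.8 kb against 25.7 kb over all named coding genes. SLC10A1, the main sodium-dependent bile acid uptake carrier of hepatocytes, held one at chromosome 7, 93418945 to 93419525, 2753 bp from its end, with a fold of 3.27 on 11 fragments (5.49 to 19.7). The nearest high-list peak was 102167 bp away, and the SLC10A1 peak was not among the 105 peaks above the high library's limit.

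ABCB11, the bile salt export pump gene, held a low-only peak of fold 3.64 on 11 fragments at chromosome 15, 75471321 to 75471753, 18040 bp from the nearest high-list peak. ABCB11 also held 1 high-list summit, of fold 2.34. ABCC4, a basolateral export pump gene, held a low-only peak of fold 3.27 at chromosome 11, 64108996 to 64109434, beside 3 high-list summits of fold 2.35 to 3.01. SLCO1A2 held a low-only peak of fold 2.68 that lies at an end of IAPP, a gene inside it, and 1 high-list summit of fold 2.86. None of the low-only peaks in ABCB11, ABCC4 and SLCO1A2 was above the high library's limit.

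Nuclear receptors and bile acid sensors held low-only peaks in 13 of 35 genes (37.1%), and 23 held or neighboured a high-list summit. At gene ends there was 1, RXRB, a retinoid X receptor gene, with a fold of 2.57 on 10 fragments at chromosome 7, 25242722 to 25243021, beside SLC39A7. RXRA, its paralogue and the partner of the bile acid receptor FXR, held 4 low-only summits of fold 2.46 to 3.21 beside 17 high-list summits of fold 2.29 to 5.03. Of these 4, 3 lay between chromosome 1, 273756047 and 273758075, the nearest 1357 bp from a high-list peak. RARB, a retinoic acid receptor gene, held one of fold 3.99 on 13 fragments, and NR3C1, the glucocorticoid receptor gene, one of 982 bp width and fold 3.93, among the 4 widest members. NR5A2, a regulator of bile acid synthesis, held one of fold 3.64. In or within 1 kb of RARB, NR3C1 and NR5A2 the high list had 4, 1 and 3 summits. The median gene length in this list is 60.7 kb against 25.7 kb over all named coding genes.

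For the AP-1 family, which the title of the series brings up through c-JUN, no gene of 25 had a low-only gene-end summit, and 4 had a high-list one. CREB1 (fold 3.27), CREM (2.73) and MAF (2.48) held low-only peaks inside the gene, and CREB1 and CREM held no high-list summit. CREB1 and CREM encode cyclic AMP response factors. Of 36 genes of the JNK and MAP kinase cascade, none had a low-only gene-end summit and 11 (30.6%) held one in the gene. The median gene length in this list is 45.3 kb against 25.7 kb over all named coding genes. MAP2K1, which encodes the kinase MEK1, led with a fold of 3.83 on 14 fragments at chromosome 1, 164462799 to 164463144, followed by the phosphatase gene DUSP8 (3.70 on 15 fragments) and the atypical kinase gene MAPK6 (3.64 on 11). DUSP8 also held a high-list peak of fold 4.79.

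Lactate and sugar metabolism had 2 of 40 genes with a low-only gene-end summit (5%) and 9 with a high-list one. GPI, which encodes glucose-6-phosphate isomerase, had a fold of 3.30 on 11 fragments at chromosome 6, 44038578 to 44038913. PFKL, the liver phosphofructokinase gene, had 2.98 on 9 fragments at chromosome 13, 207167712 to 207168010. In the bodies of PFKFB2, PFKFB3 and PFKP folds were 3.67, 3.27 and 2.89. PFKL, PGAM1 and PKM were the 3 of 8 genes with a low-only summit that had no high-list summit. Of 31 histone acyl genes, HAGH, a glyoxalase gene listed for its link to lactoylglutathione, had a gene-end peak of fold 3.63 on 12 fragments, and HDAC7, CREBBP and KAT2B held peaks of 2.60 to 3.06 inside.

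Fatty acid oxidation and peroxisome genes had 2 of 34 with a low-only gene-end summit (5.88%) and 8 with one in the gene or within 1 kb (23.5%). CPT2, the inner-membrane carnitine palmitoyltransferase gene, had 2 low-only peaks on either side of the same end, at chromosome 6, 159060524 to 159061094 and 159061610 to 159062004, with folds of 3.63 and 3.74 on 12 fragments each. SLC25A20, the carnitine-acylcarnitine carrier gene, held one of fold 3.43 on 13 fragments, 1060 bp from its end. ACADS, the short-chain acyl-CoA dehydrogenase gene, had a gene-end peak of 2.53, and BDH1 and ETFA held peaks of 2.73 and 2.43. These 5 genes had no high-list summit. HADHB, the trifunctional protein beta subunit gene, held the highest fold of the list, 4.23 on 14 fragments at chromosome 3, 112738284 to 112738720, and had a high-list summit of 2.78 at an end.

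Lipid and cholesterol genes had 1 of 33 at a gene end, FDFT1, the squalene synthase gene, with a fold of 3.34 on 14 fragments, 1403 bp from a high-list peak. HMGCS1 (3.27), the HMG-CoA synthase gene of sterol synthesis, and SOAT2 (3.23), a cholesterol esterification gene, held one inside and no high-list summit. Of 20 gluconeogenesis and urea cycle genes, GLS2, a liver glutaminase gene, had a gene-end peak of 2.97 next to MIP, and FBP1 held one of 2.89. GLS2 also had 2 high-list gene-end summits of fold 3.36, and FBP1 held 2 high-list summits, of fold 2.35 and 3.69. Glutathione and redox genes had 2 of 34 (5.88%). These were GSTO1 and SOD1, the cytosolic superoxide dismutase gene, the latter with a fold of 3.46 on 11 fragments at the neighbouring ends of SOD1 and SCAF4. SOD1 also had a high-list gene-end summit, of fold 3.12.

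RNA polymerase subunit genes had 5 of 28 with a low-only gene-end summit (17.9%) and 8 with a high-list one, and no gene was in both. Over all named coding genes, 38 of the 412 with a low-only gene-end summit also had a high-list one. The rule bars a high-list peak within 1 kb of a member, so nothing is read from the lack of overlap. Besides POLR1D, the genes were POLR2D (3.20 on 10 fragments, chromosome 15, 59479372 to 59479670), POLR1E (2.98 on 9), POLR1B (2.55 on 8) and POLR3D (2.45 on 10, beside MIR320). The 5 summits lay 54 to 984 bp outside their genes. POLR1D alone of the 5 was above the high library's limit. The list covers polymerases I, II and III, and POLR1A and POLR2B held peaks of up to 3.67 and 3.14 inside the gene. Of 42 spliceosome genes, CRNKL1 had a gene-end peak, and SF3A1 and U2AF1 held 2 each inside.

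**Figure D5:**
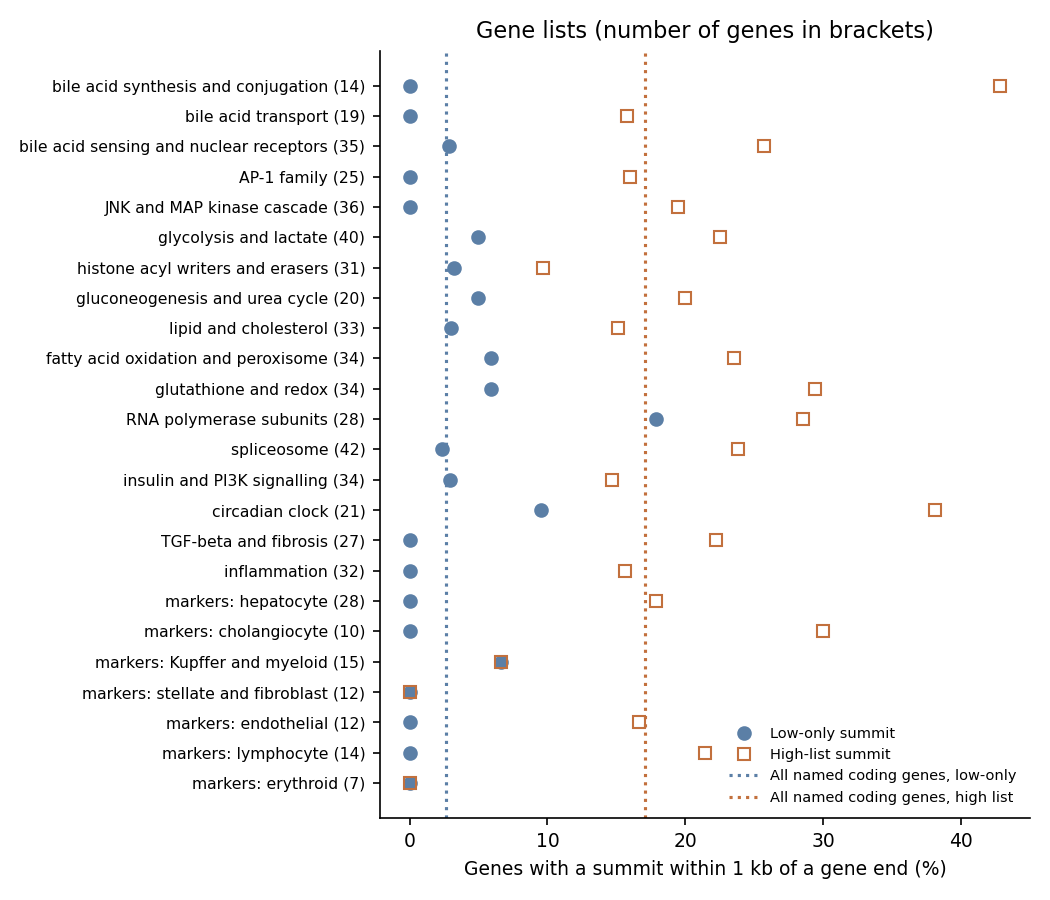
Percent of each list's genes with a summit within 1 kb of a gene end (horizontal axis), for low-only peaks (filled circles) and the high list (open squares), with dotted lines at the shares of all named coding genes, 2.63% and 17.1%. Low-only circles lie at 0 for 12 of the 24 lists and at 17.9%, their highest, for RNA polymerase subunits.

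Of 34 insulin and PI3K genes, IGF2R had a gene-end peak of 2.75, and PIK3CB, a catalytic PI3K subunit gene, held one of 4.23 on 13 fragments, 1152 bp from its end, at chromosome 13, 79609411 to 79609857, with no high-list summit. Circadian clock genes had 2 of 21, FBXW11 and NFIL3, a repressor of clock outputs, with 2.83 on 9 fragments. For TGF-beta and fibrosis genes the count at gene ends was 0 of 27, and SMAD7, an inhibitor of this pathway, held a peak of 3.77 on 16 fragments, 4095 bp from a high-list peak. Of 32 inflammation genes, 0 had a low-only summit in the gene or within 1 kb, and 13 had a high-list one. This list has short genes, with a median of 7.26 kb.

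Markers of cell types were counted as a check of the label. Of 28 hepatocyte markers, 0 had a low-only summit in the gene or within 1 kb, among them ALB, TTR and the fibrinogen genes, and 13 had a high-list summit. These are short genes too, with a median of 12.3 kb, and of all named coding genes up to 10 kb and from 10 to 50 kb only 2.53% and 9.40% held a low-only summit, so the count of 0 says little about the label. Of the other markers, AIF1, a macrophage gene, had the only gene-end peak, of fold 2.68 on 8 fragments. Inside genes were peaks in KRT19 and SLC4A2 of 10 cholangiocyte markers, CD86 of 15 Kupffer and myeloid markers, ACTA2 and PDGFRB of 12 stellate markers, FLT1 and PECAM1 of 12 endothelial markers and PTPRC, among others, of 14 lymphocyte markers. No erythroid marker of 7 held one. The folds in the genes named here were 2.48 to 3.32. The part of other cell types in the low-only calls was not tested.

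The local background was mostly low. An expected number of 2.5 or more lay under 19.1% of the low-only peaks (1003), 38.5% of the high-list peaks and 29.6% of the low-list peaks with a high-list peak within 1 kb. An expected number of 3 or more lay under 9.69% of the low-only peaks (510; 8.90 to 10.5%), and of 5 or more under 0.247%. The member with the most fragments, 47 over 27.0 expected at chromosome 10, 24933784 to 24934236 near CYB5R1, had the lowest fold of all, 1.51. In the high list the shares at 3 and 5 were 9.30% and 0.294%, and among low-list peaks with a high-list peak within 1 kb 14.8% and 2.14%.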

How the data were processed

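H4K12la immunoprecipitates and inputs of sow liver were sequenced, and 1 narrow peak list per immunoprecipitated library was analysed. No list of an input library was used. Reads were handled with MACS2 2.1.0, Bowtie 1.1.2, Trimmomatic 0.33 and bcl2fastq 2.17, per the submitters' processing notes, which name both hg38 and Sscrofa11.1. The lists name chromosomes 1 to 18, X and Y, as in the pig, and were read as Sscrofa11.1. The deposited fold enrichment (a ratio), −log10 p-values and −log10 q-values are the authors' values per peak. The deposited score is a display value and was not used. Nothing states that libraries were pooled.

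Summit fragments were solved from fold and p (tolerance 0.002 in −log10 p), which gave whole numbers for 5734 of 5735 peaks in the low and 28282 of 28283 in the high list, with pileups scaled by 0.881 (low) and 1 (high). The lowest expected number was 1.94 and 1.98. The solver was tested on simulated data. RefSeq gene positions on Sscrofa11.1 were used without strand, so start sites could not be used and no promoter or motif was examined. No genome sequence was used here.

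The members and gene lists (598 of 634 symbols matched) were chosen with earlier results of these data known. Genes were named by rank of fold, of summits per gene and per kb, of distance and of grouping, plus all list members at gene ends and up to 3 per list inside, by fold; members named beyond this complete a count. Python 3.11.15 with scipy 1.17.1 was used. A few members that the naming rule gave are not reported here.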

Additional observations from a re-analysis of the deposited data

Results flagged for a closer look

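Outside the rule, which takes chromosomes 1 to 18, the low list held 4 peaks on chromosome X. These 4 peaks are few beside the 2.32 low-only peaks per Mb on chromosomes 1 to 18, since the last began at 90107018, for a reason that was not tested. None had a high-list peak within 1 kb. They lay in MID1 (fold 3.56 on 11 fragments) and TMEM164 (3.04 on 9), 3029 bp from PDHA1 (2.74 on 8) and 66832 bp from USP27X (2.60 on 8), each with a q of 1. The single low-list peak on chromosome Y, of fold 1.40 and with an authors' q of 1.35e-41, had a high-list peak within 1 kb. The samples were labelled female, and how a peak on chromosome Y came about was not tested.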

How the results depend on the processing

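No paired analysis was possible because neither group holds a second antibody library. Of 45 alternative values for the 6 main results, 26 stayed within their interval or within 1.5 times, among them all values for a limit of 0 or 5 kb to the high list and for high-list peaks with a p of 0.001 or smaller only. Low-list peaks with a fold of 3.5 or more left 649 members, 10.5% at gene ends, 61 genes with a gene-end summit and 114 genes holding a low-only but no high-list summit. With a p of 0.001 or smaller the numbers were 3105 members, 242 and 455 genes. With a q under 0.05 there were 6 members, 0% at gene ends, 66.7% inside genes, 0 and 2 genes, and 6 above the high library's limit. These falls come with the shorter lists. A gene-end window of 3 kb gave 19.3% at gene ends, 51.3% inside and 868 genes. Any base of the peak, in place of the summit, gave 10.7% at gene ends, and protein-coding genes only gave 7.68% and 51.0%. For the 24 gene lists, a 3 kb window moved the gene-end count by over 1.5 times in 9 and counting the whole gene did so in 19. Depth limits all of this: most members rest on 9 to 11 fragments.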
